A study of Rattus norvegicus with 28 samples.

Results

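Levels of 5 activity-induced immediate early genes were followed across 28 rat brain RNA-seq libraries: Fos (ENSRNOG00000008015), Junb (ENSRNOG00000042838), Egr1 (ENSRNOG00000019422), Nr4a1 (ENSRNOG00000007607) and Arc (ENSRNOG00000043465). They were chosen by name as textbook members of the class and were looked up by Ensembl identifier. All 5 of 5 were found among the 32623 genes of the count table, with 0 missing, and all 5 were among the 18134 genes that passed the filter on low counts. The question of the study was whether sex and estrous stage change brain RNA differently in different genotypes. Whole brains came from the inbred strains BN-Lx/Cub, a Brown Norway line, and SHR/OlaIpcv, the spontaneously hypertensive rat. There were 12 females per strain, with 4 animals in each of 3 stages (pre-estrus, estrus, post-estrus), besides 2 males per strain, all labelled biological replicates, and the protocol in the labels calls the animals alcohol-naïve. No group received a treatment that the labels name, and the labels give no age, time of day or handling before the brain was taken.

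Immediate early genes are transcribed within minutes of synaptic activity, growth factor or stress signals, without new protein synthesis, and their short-lived mRNAs then fall back. In brain they are used as markers of recent neuronal activity, and handling, novelty, arousal and the hour of the day all move them. Fos and Junb encode subunits of the AP-1 transcription factor, Egr1 a zinc finger transcription factor and Nr4a1 an orphan nuclear receptor, whereas Arc encodes a cytoskeleton-associated protein that acts at synapses. Signals reach these genes mainly through the calcium- and cAMP-responsive factor CREB, which binds the cAMP response element (CRE), and through serum response factor, which binds the CArG box.

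The promoters are shown as a description of the genes. The genes moved together from animal to animal, as described further on, and whether promoter motifs have a part in this was not tested. RefSeq's table for the build GRCr8 held a promoter for 3 of the 5 genes, Egr1, Junb and Nr4a1. The 250 bases before each annotated start are printed 5′ to 3′ on the plus strand, on which all 3 genes lie, with capitals marking every motif match found. The windows are chr18:26736828-26737077 for Egr1, chr19:40080876-40081125 for Junb and chr7:134259888-134260137 for Nr4a1.
Egr1: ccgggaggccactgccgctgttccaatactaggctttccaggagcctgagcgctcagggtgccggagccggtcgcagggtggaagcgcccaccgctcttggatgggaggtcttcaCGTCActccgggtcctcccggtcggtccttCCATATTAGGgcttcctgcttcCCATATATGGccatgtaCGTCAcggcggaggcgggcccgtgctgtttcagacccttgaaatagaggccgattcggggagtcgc
Junb: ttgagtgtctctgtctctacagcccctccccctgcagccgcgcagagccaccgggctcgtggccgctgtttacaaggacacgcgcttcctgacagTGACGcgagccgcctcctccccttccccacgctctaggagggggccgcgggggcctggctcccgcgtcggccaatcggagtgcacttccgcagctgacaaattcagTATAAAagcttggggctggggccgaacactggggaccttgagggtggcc
Nr4a1: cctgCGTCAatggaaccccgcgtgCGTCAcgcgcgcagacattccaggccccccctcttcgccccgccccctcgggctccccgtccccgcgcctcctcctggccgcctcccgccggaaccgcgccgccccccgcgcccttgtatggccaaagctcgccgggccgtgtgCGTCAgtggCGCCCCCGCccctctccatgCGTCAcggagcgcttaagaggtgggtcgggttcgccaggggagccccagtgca
The motifs were searched on both strands and were the CArG box, the CRE (TGACGTCA), its half-site (TGACG, which overlaps the full CRE), the EGR site (GCGNGGGCG), the AP-1 site (TGANTCA) and the TATA box (TATAAA). In the Egr1 window, 2 CArG boxes began 105 and 83 bases before the start and 2 CRE half-sites 135 and 66 bases before it. A CArG box was held by 1.5% of the 33469 promoters of the same length, and 2 or more by 0.0209%. The Nr4a1 window held 4 CRE half-sites, at 246, 226, 82 and 53 bases before the start, and 1 EGR site at 73 bases. Of all promoters, 18.2% held a half-site, 3.98% held 2 or more, 0.173% held 4 or more, and 4.29% held an EGR site. These shares were not matched for base composition. The Junb window held 1 CRE half-site at 155 bases and a TATA box at 49 bases before the start, motifs found in 18.2% and 12.9% of promoters. No window held a full CRE or an AP-1 site. Only the Egr1 window held a CArG box, and only the Nr4a1 window held an EGR site. The annotated Nr4a1 start lies inside the longer span that RefSeq gives the gene, so other starts exist. A match describes letters in these windows and does not show that a factor was bound in these brains.

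The libraries held 43410562 to 90667237 expected counts each, spike-in RNAs included. Spike-ins took 1.46% to 6.05% of the counts, and the 8 most abundant genes took 34.8% to 50.7% of the gene counts. In the sample descriptions 15 libraries end in b35 and 13 in b37, a suffix whose meaning the labels do not give. It was treated as a possible batch and kept as a term in the model. Levels below are CPM (a gene's share of the library's counts, on a common scale) scaled by TMM, a normalization that evens out differences in RNA composition, and fold changes are on the log2 scale.

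Per unit of transcript length, Arc was the most abundant of the 5 genes. The deposited TPM, which corrects for transcript length, averaged 8.72 ± 4.66 for Arc, 5.97 ± 2.15 for Egr1, 3.37 ± 2.28 for Fos, 2.77 ± 1.71 for Nr4a1 and 2.59 ± 1.48 for Junb (SD, n = 28). Arc exceeded Egr1 in TPM in 22 of 28 libraries, and Egr1 exceeded Fos in 26 of 28. Fos exceeded Nr4a1 in 22 of 28. The last neighbours in the order did not separate, since Nr4a1 exceeded Junb in 17 of 28 libraries, with a median TPM ratio of 1.05 (range 0.414 to 3.04). The genes rested on 81 to 1279 counts per library for Junb, 117 to 1939 for Nr4a1, 141 to 1665 for Fos, 545 to 5525 for Arc and 840 to 3483 for Egr1. Counting error alone was therefore at most 11.1% of the value for Junb and 3.45% for Egr1, well under the differences between animals given next. In whole-brain RNA, fewer active cells and less RNA per cell cannot be told apart.

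Fos differed 12.4-fold between the lowest and the highest library. In BN-Lx females Fos stood at 5.22, 6.09, 17.6 and 25.4 CPM at pre-estrus, at 2.52, 3.86, 4.78 and 15.3 CPM at estrus, and at 2.72, 5.8, 8.83 and 21.3 CPM at post-estrus. In SHR females it stood at 3.43, 11.5, 11.8 and 14.8 CPM at pre-estrus, at 4.36, 6.98, 11.6 and 13.4 CPM at estrus, and at 2.05, 11.3, 11.8 and 15.7 CPM at post-estrus. The males had 3.86 and 5.79 CPM in BN-Lx and 6.43 and 6.76 CPM in SHR. In every female group the highest animal had at least 3.07 times the Fos level of the lowest, and all female groups overlapped. The males of the 2 strains did not overlap, as was the case for 58% of all genes tested in this comparison of 2 against 2 libraries, and all 4 lay inside the range of the females.

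Junb, the partner of Fos in AP-1, differed 13.8-fold between libraries. In BN-Lx females Junb stood at 5.24, 6.14, 9.47 and 19.5 CPM at pre-estrus, at 1.41, 7.52, 7.7 and 11.8 CPM at estrus, and at 3.87, 7.5, 9.02 and 10.6 CPM at post-estrus. In SHR females it stood at 3.13, 8.33, 14.6 and 16.1 CPM at pre-estrus, at 3.81, 7.11, 7.41 and 8.56 CPM at estrus, and at 5.39, 6.27, 9.96 and 13.7 CPM at post-estrus. The males had 5.1 and 7.02 CPM in BN-Lx and 4.7 and 4.82 CPM in SHR. The SHR males lay below the BN-Lx males, the BN-Lx pre-estrus females and the SHR post-estrus females without overlap. The same pairs of groups did not overlap for 58%, 19.9% and 15% of all genes. All other pairs of groups overlapped for Junb.

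Egr1 had the narrowest range, 3.57-fold. In BN-Lx females Egr1 stood at 20.8, 27.1, 49.7 and 52.1 CPM at pre-estrus, at 14.6, 18.6, 35.4 and 48.9 CPM at estrus, and at 18.1, 25.5, 34.6 and 39.9 CPM at post-estrus. In SHR females it stood at 15.6, 32.2, 42.9 and 52.1 CPM at pre-estrus, at 28.2, 34.9, 36.8 and 49.0 CPM at estrus, and at 22.0, 40.8, 43.7 and 47.1 CPM at post-estrus. The 4 males lay close together, at 31.9 and 32.7 CPM in BN-Lx and at 31.9 and 36.7 CPM in SHR. In CPM every pair of groups overlapped. In TPM the estrus females of the 2 strains did not overlap, with 3.05 to 5.49 TPM in BN-Lx and 6.29 to 7.13 TPM in SHR, a separation found for 2.6% of all genes, and on this scale the median of all genes was itself 0.18 higher in SHR at estrus (log2). A limma fit on TPM, added because of this separation, placed Egr1 at 0.66 there and did not call it (adjusted p = 0.622). In TPM Egr1 of the BN-Lx males (4.47 and 5.29) also lay below that of the SHR males (6.09 and 6.8) and the SHR estrus females, and the BN-Lx estrus females lay below the SHR males, which held for 60.5%, 22.9% and 9.98% of all genes.

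Nr4a1 had the widest range, 14.5-fold. In BN-Lx females Nr4a1 stood at 6.52, 10.6, 22.8 and 29.5 CPM at pre-estrus, at 2.03, 5.51, 6.84 and 20.8 CPM at estrus, and at 5.35, 8.86, 9.07 and 20.6 CPM at post-estrus. In SHR females it stood at 3.52, 15.1, 18.7 and 20.2 CPM at pre-estrus, at 5.72, 11.2, 12.4 and 17.1 CPM at estrus, and at 5.5, 15, 15.9 and 23.9 CPM at post-estrus. The males had 7.96 and 10.1 CPM in BN-Lx and 7.08 and 8.42 CPM in SHR. All pairs of groups overlapped.

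Arc, the synaptic effector of the set, differed 9.4-fold between libraries. In BN-Lx females Arc stood at 27.8, 38.3, 69.2 and 82.6 CPM at pre-estrus, at 9.47, 24.0, 30.4 and 84.9 CPM at estrus, and at 17.4, 32.3, 41.6 and 67.2 CPM at post-estrus. In SHR females it stood at 15.8, 55.5, 70.9 and 71.1 CPM at pre-estrus, at 31.0, 48.8, 52.2 and 82.7 CPM at estrus, and at 17.8, 70.6, 86.4 and 89.0 CPM at post-estrus. The males had 26.2 and 37.3 CPM in BN-Lx and 35.4 and 39.8 CPM in SHR. All pairs of groups overlapped. Over the 5 genes and the 28 pairs of groups, the ranges of CPM overlapped in 136 of 140 cases. The 4 that did not overlap all involved a male group of 2 libraries, and over all genes 12.1% of such cases did not overlap. In TPM 9 of 140 did not, 8 of them with a male group, against 11.4% over all genes. Beside the Egr1 cases these were Fos and Arc of the BN-Lx males against the SHR males and the SHR estrus females, and Fos of the BN-Lx males against the BN-Lx pre-estrus females, a pair that did not overlap for 31.1% of all genes.

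**Figure D1:**
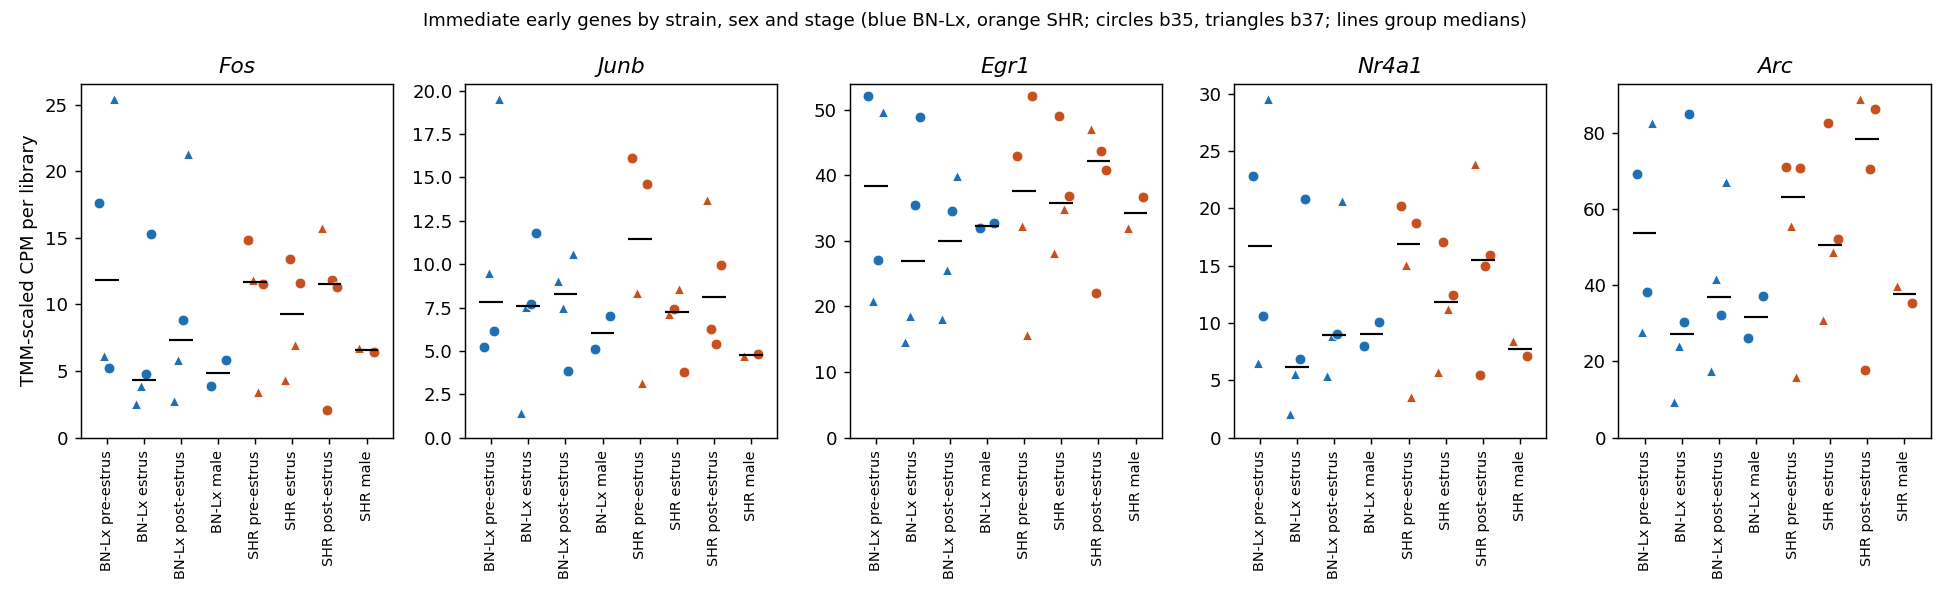
TMM-scaled CPM (y axis, linear, from 0, with a separate scale for each gene) of each library (points) by strain, sex and stage (x axis), with blue for BN-Lx, orange for SHR, circles for b35, triangles for b37 and a line at each group median. Female groups overlap for every gene. Among females, highest over lowest was 14.5-fold for Nr4a1, 13.8 for Junb, 12.4 for Fos, 9.4 for Arc and 3.57 for Egr1. The 2 males of a strain lie closer together than most female groups.

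The same animals were low or high for most of the genes. BN-Lx estrus replicate 2 was the lowest of the 28 libraries for Junb, Egr1, Nr4a1 and Arc, and the second lowest for Fos. SHR pre-estrus replicate 12 was the second lowest for those 4 genes and ranked 4 from the bottom for Fos. BN-Lx post-estrus replicate 3 ranked 3 from the bottom for Fos, Egr1, Nr4a1 and Arc, but its 9.02 CPM of Junb ranked 20. At the other end, BN-Lx pre-estrus replicate 7b was the highest library for Fos, Junb and Nr4a1, and ranked 26 for Egr1 and 24 for Arc. BN-Lx pre-estrus replicate 3 showed the reverse of BN-Lx post-estrus replicate 3, since it was the highest of all for Egr1 and ranked 26 for Fos and Nr4a1, while its 5.24 CPM of Junb ranked 8. Low and high animals occurred within a single strain and stage.

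**Figure D2:**
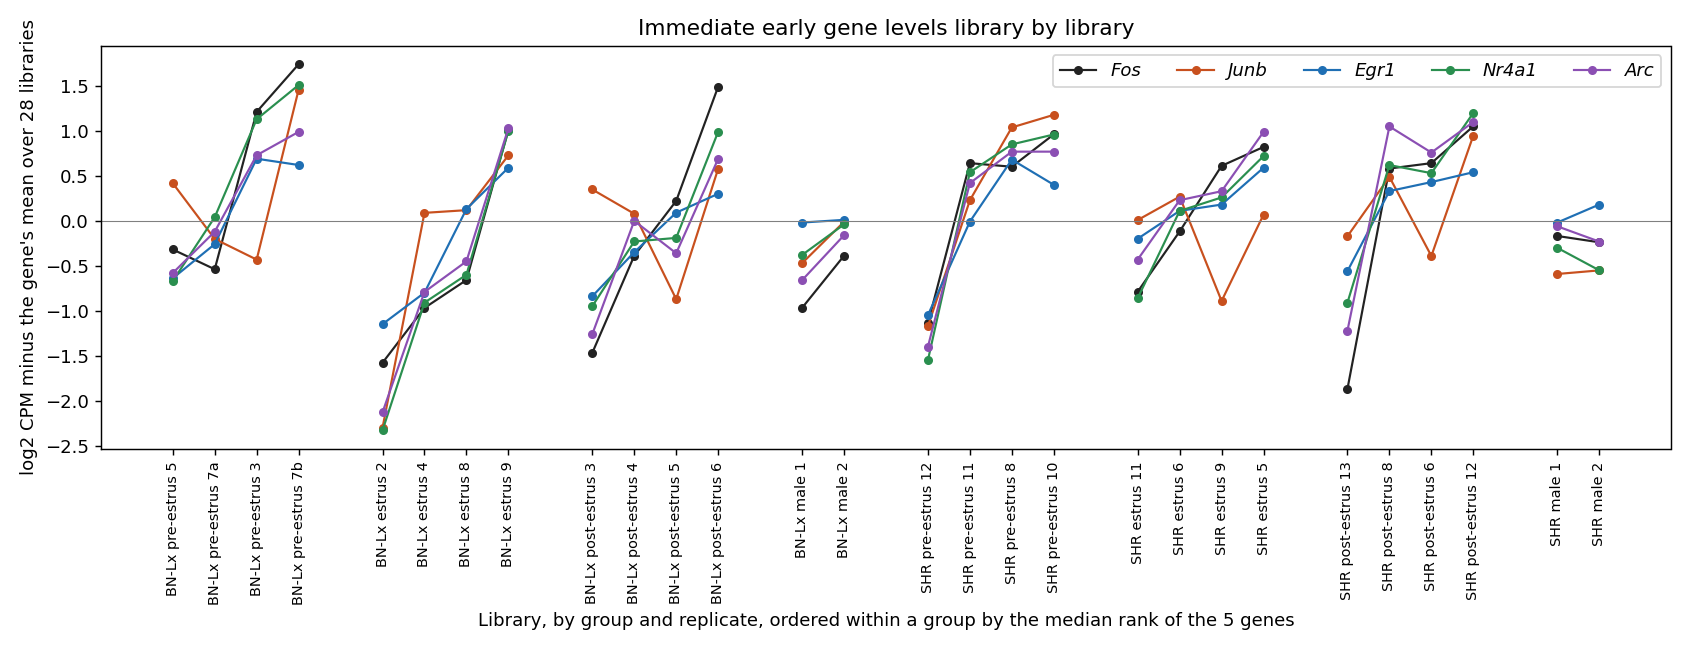
log2 CPM of each gene minus its own mean over the 28 libraries (y axis) for each library (x axis), grouped by strain, sex and stage and ordered within a group by the median rank of the 5 genes, with a coloured line for each gene. Fos, Egr1, Nr4a1 and Arc mostly rise and fall together from library to library, with small exceptions such as Fos between BN-Lx pre-estrus replicates 5 and 7a, and Junb leaves them in several b35 and b37 libraries, such as BN-Lx pre-estrus replicate 3 and BN-Lx post-estrus replicate 3.

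Across the 28 libraries, after each group's mean was subtracted, all 10 pairs of genes were positively correlated. Nr4a1 and Arc were the closest pair (Pearson's r = 0.98, Spearman's rho = 0.97), and their CPM ratio stayed between 0.184 and 0.357 in all libraries while each gene varied 14.5-fold and 9.4-fold. Fos gave r = 0.94 with Arc, 0.93 with Nr4a1 and 0.89 with Egr1, and Egr1 gave r = 0.94 with Nr4a1 and 0.92 with Arc. For these 6 pairs rho was 0.87 to 0.97, and the permutation test within groups gave p = 1e-05 for r, the smallest that 100000 permutations can give, and an adjusted p of 1.67e-05 over the 10 pairs. Junb followed less closely, with r = 0.67 with Nr4a1 (permutation p = 0.00631, adjusted p = 0.00789), 0.65 with Arc (permutation p = 0.00586, adjusted p = 0.00789), 0.56 with Egr1 (permutation p = 0.0282, adjusted p = 0.0289) and 0.5 with Fos (permutation p = 0.0289, adjusted p = 0.0289). The rho of Junb with the same genes was 0.58, 0.61, 0.51 and 0.46, with adjusted p of 0.0113, 0.00639, 0.0335 and 0.0404. All tests were two-sided. The 2 genes of a pair share a library and its scaling.

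With the 2 libraries farthest from the median of the first gene left out, r was 0.88 to 0.98 for the 6 pairs without Junb and 0.41 to 0.58 for the 4 pairs with it. Without BN-Lx estrus replicate 2, the lowest library, r of Junb fell to 0.45 with Fos (adjusted p = 0.0644, permutation test) and to 0.45 with Egr1 (adjusted p = 0.0849, permutation test), neither of which passed 0.05. With each library left out in turn, r was 0.87 to 0.98 for the pairs without Junb and 0.41 to 0.74 for those with it. Within the b35 libraries r was 0.89 to 0.97 for the pairs without Junb and 0.25 to 0.51 for those with it (13 libraries in groups of 2 or more). Within the b37 libraries the values were 0.93 to 0.98 and 0.57 to 0.78 (11 libraries). These subsets allow only 192 and 96 rearrangements, and the number of pairs past an adjusted p of 0.05 was 0 of 10 within b35 and 6 of 10 within b37. The spread of the log2 ratio within groups was 0.21 (SD) for Nr4a1 to Arc, 0.37 to 0.59 for Fos to the others except Junb, and 0.71 to 0.96 for Junb to any other gene.

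**Figure D3:**
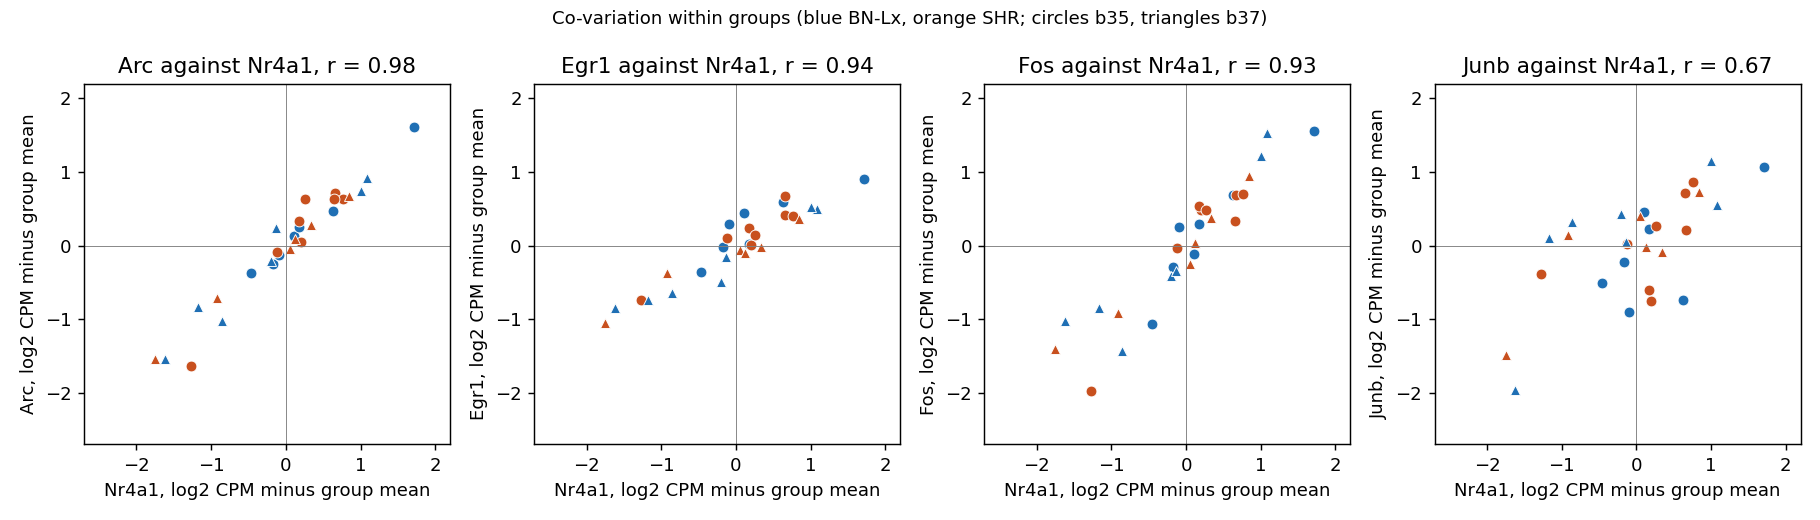
log2 CPM minus the group mean of Arc, Egr1, Fos and Junb (y axes) against that of Nr4a1 (x axis), 1 point per library, blue for BN-Lx, orange for SHR, circles for b35 and triangles for b37. Arc, Egr1 and Fos follow Nr4a1 along a line (r = 0.98, 0.94 and 0.93), and Junb scatters more widely (r = 0.67).

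Against all genes, the 4 closely linked members were near the top of each other's lists. When each gene was compared with the mean of the other 4, Nr4a1 (r = 0.98) and Arc (r = 0.97) ranked 1 among 18130 genes, Egr1 (r = 0.91) and Fos (r = 0.89) ranked 3, and Junb (r = 0.61) ranked 50. For Junb taken alone, the other members ranked between 1552 (Nr4a1) and 3828 (Fos) of 18133 genes, so many other genes tracked Junb more closely than its own class did. Among 13990 further genes of at least 1 CPM, the 2 whose profile over the 28 libraries was most like the mean of the 5 were ENSRNOG00000004100 (r = 0.97, mean 3.19 CPM) and ENSRNOG00000003977 (r = 0.92, mean 25.6 CPM), against a median r of -0.01 over those genes. The files do not pair these identifiers with names. These ranks describe the libraries and carry no test.

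The spread between animals of a group was large beside that of other genes. The residual SD of log2 CPM within groups was 1.04 for Fos, 0.96 for Nr4a1, 0.91 for Arc, 0.84 for Junb and 0.58 for Egr1. The median over the 13995 genes of at least 1 CPM was 0.25. Among those genes, 2.12% had a larger spread than Fos, 2.51% than Nr4a1, 2.79% than Arc, 3.41% than Junb and 8.2% than Egr1. The biological coefficient of variation in the fit was 0.63 for Fos, 0.58 for Nr4a1, 0.54 for Arc, 0.51 for Junb and 0.33 for Egr1, against a median of 0.22. Differences between the 8 group means held 11.0% (Egr1) to 18.4% (Nr4a1) of the sum of squares of a member, against a median of 24.8% over all genes tested. Such a share is above 0 even when groups do not differ, since 8 means were taken from 28 libraries. No chance level was computed, so the shares do not measure an effect of strain, sex or stage.

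**Figure D4:**
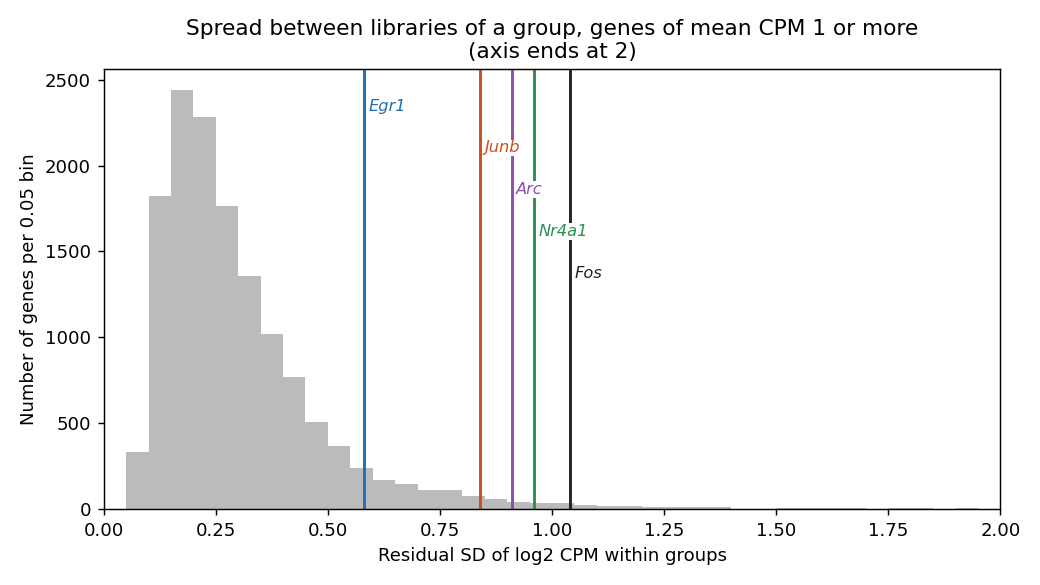
Number of genes (y axis) by residual SD of log2 CPM within groups (x axis, in bins of 0.05, ending at 2) for genes of at least 1 CPM, with a vertical line for each immediate early gene. The 5 lines, from 0.58 for Egr1 to 1.04 for Fos, lie in the upper tail of the distribution.

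The spread was of similar size in the females of both strains and smaller in the 4 males. The SD within groups was 1.16 in BN-Lx and 1.03 in SHR females for Fos, 0.99 and 0.78 for Junb, 0.67 and 0.56 for Egr1, 1.08 and 0.94 for Nr4a1, and 0.98 and 0.94 for Arc. In the males it was 0.29 for Fos, 0.23 for Junb, 0.1 for Egr1, 0.21 for Nr4a1 and 0.27 for Arc, or 0.17 to 0.28 times the value in females. The median of that ratio over genes of at least 1 CPM was 0.57. The male values rest on 2 degrees of freedom, and both males of a strain carry the same number in the sample description, so the difference in spread was not tested.

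No difference between the strains was detected for these genes. In females the model placed SHR minus BN-Lx at -0.01 ± 0.39 for Fos, 0.09 ± 0.31 for Junb, 0.16 ± 0.20 for Egr1, 0.14 ± 0.35 for Nr4a1 and 0.34 ± 0.33 for Arc (log2, SE, 12 against 12 libraries). Of the 5 genes 0 were called at an adjusted p under 0.05, while 9.51% of all genes tested were called, and the lowest adjusted p was 0.641, for Arc. The 95% interval of the fold was 0.791 to 2.04 for Arc, 0.839 to 1.48 for Egr1 and 0.568 to 1.74 for Fos. The median over the members was 0.14, against 0.018 over all genes. Within b35 alone the values ran from 0.11 (Egr1) to 0.51 (Junb), and within b37 alone from 0.02 (Junb) to 0.56 (Arc). In the males, SHR minus BN-Lx was 0.63 ± 0.98 for Fos, -0.42 ± 0.77 for Junb, 0.33 ± 0.49 for Egr1, -0.01 ± 0.89 for Nr4a1 and 0.48 ± 0.82 for Arc (2 against 2 libraries), with 0 of 5 called against 0.8% of all genes.

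The strain difference was also taken stage by stage, with 4 against 4 libraries. At pre-estrus it lay between -0.46 ± 0.67 (Fos) and 0.13 ± 0.54 (Junb), with 0 of 5 called against 2.5% of all genes. At estrus it was highest for Arc (0.59 ± 0.57), and Junb was at -0.12 ± 0.53, with 0 of 5 called against 2.24%. At post-estrus Arc was again highest (0.55 ± 0.58) and Fos was at -0.04 ± 0.68, with 0 of 5 called against 2.5%. Single libraries set the post-estrus values, since Fos was at -0.66 without SHR post-estrus replicate 12 and 0.76 without BN-Lx post-estrus replicate 6, and Arc at 0.05 and 0.97. Junb at pre-estrus had opposite signs in the 2 suffixes. SHR minus BN-Lx was 1.43 in b35 (adjusted p = 0.0344, edgeR, 2 against 2 libraries, where 2488 of 18602 genes were called). In b37 it was -1.33 and was not called (adjusted p = 0.56, edgeR). The libraries behind these values were BN-Lx at 5.24 and 6.14 CPM and SHR at 14.6 and 16.1 CPM in b35. In b37 they were BN-Lx at 9.47 and 19.5 CPM and SHR at 3.13 and 8.33 CPM. Whether the strain difference changed with the suffix was not tested. The strain difference did not change with stage detectably, with 0 of 5 called and 0% of all genes (lowest adjusted p of a member 0.972).

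Between the stages, all 5 genes were lower at estrus than at pre-estrus in the model, but none of these differences passed the test. The genes mostly move together from animal to animal, so their shared direction is not 5 separate results. Over both strains, estrus minus pre-estrus was -0.68 ± 0.48 for Fos, -0.57 ± 0.37 for Junb, -0.17 ± 0.24 for Egr1, -0.69 ± 0.43 for Nr4a1 and -0.32 ± 0.40 for Arc (8 against 8 libraries). The adjusted p was 1 for each, and 0 of 5 members and 0% of all genes were called. An unadjusted p under 0.05 was found for 421 genes, none of them a member, fewer than would be found if no gene differed. DESeq2 called 8 genes there and limma voom 2, with 0 members among them. In BN-Lx alone the differences were -1.15 ± 0.68 for Fos, -0.45 ± 0.54 for Junb, -0.44 ± 0.34 for Egr1, -1.1 ± 0.62 for Nr4a1 and -0.67 ± 0.57 for Arc. The value for Nr4a1 there, a fold of 0.468 with an interval of 0.191 to 1.14, had the lowest unadjusted p of a member in the comparisons between groups, 0.0921 (adjusted p = 0.858). Single libraries moved these values. With BN-Lx estrus replicate 9 left out they became -1.85 for Nr4a1, -1.87 for Fos, -1.35 for Arc, -0.71 for Egr1 and -0.82 for Junb, with a lowest unadjusted p of 0.00839 (Nr4a1) and none called. With BN-Lx pre-estrus replicate 7b left out they became -0.56 for Nr4a1, -0.52 for Fos, -0.26 for Arc, -0.14 for Egr1 and 0.03 for Junb. In SHR the same comparison gave -0.21 ± 0.67 for Fos, -0.7 ± 0.54 for Junb, 0.1 ± 0.34 for Egr1, -0.29 ± 0.61 for Nr4a1 and 0.02 ± 0.56 for Arc. Both single-strain comparisons called 0 of 5 members and 0% of all genes.

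The BN-Lx values were larger within the b37 libraries. Within b37 alone BN-Lx estrus minus pre-estrus was -2.31 for Fos, -1.7 for Junb, -1.1 for Egr1, -2.27 for Nr4a1 and -1.73 for Arc. Within b35 alone the same values were -0.19, 0.77, 0.09, -0.28 and 0.1. The lowest and highest libraries of the series for Nr4a1, BN-Lx estrus replicate 2 and BN-Lx pre-estrus replicate 7b, were both b37 and stood on opposite sides of this comparison. The part of the suffix in the difference was not tested further.

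From estrus to post-estrus over both strains, the values were 0.46 ± 0.48 for Fos, 0.23 ± 0.38 for Junb, 0.09 ± 0.24 for Egr1, 0.46 ± 0.44 for Nr4a1 and 0.30 ± 0.41 for Arc. All 5 were positive, 0 of 5 were called, and 0% of all genes were called. This comparison shares its estrus libraries with the one before, so opposite signs in both can come from the same animals. Within b35 the values were -0.28 to -0.52 and within b37 0.65 to 1.55, so the sign turned with the suffix for every gene. The 5 genes mostly move together. The BN-Lx part of post-estrus rested on replicate 5 alone in b35, and the SHR part on replicate 12 alone in b37. The other strain had several post-estrus libraries in each suffix. The part of the suffix in this turn was not tested. Post-estrus minus pre-estrus over both strains was -0.23 ± 0.47 for Fos, -0.34 ± 0.37 for Junb, -0.07 ± 0.24 for Egr1, -0.24 ± 0.43 for Nr4a1 and -0.02 ± 0.40 for Arc, with 0 of 5 and 0% of all genes called. Its values were -0.31 to -0.82 within b35 and 0.17 to 0.45 within b37. In each suffix the post-estrus part of 1 strain again rested on the same single library. A test of any difference among the 3 stages called 0 of 5 members and 0% of all genes in BN-Lx, in SHR and over both strains, with unadjusted p of 0.225 to 0.946 for the members. Over the comparisons in which edgeR called 0 genes, 96 to 912 genes had an unadjusted p under 0.05. That is at most about as many as would if no gene differed. In those comparisons DESeq2 called 0 to 10 genes and limma voom 0 to 2.

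Males were lower than females for all 5 genes in the model, again without passing the test. Here too the shared direction is not 5 separate results, because the genes mostly move together. Over both strains male minus female, with the stages weighted equally, was -0.85 ± 0.55 for Fos, -0.60 ± 0.43 for Junb, -0.14 ± 0.27 for Egr1, -0.67 ± 0.49 for Nr4a1 and -0.60 ± 0.46 for Arc (4 against 24 libraries). The lowest unadjusted p was 0.138, for Fos, all adjusted p were 1, and 0 of 5 members were called against 0.0331% of all genes. The interval of the fold in Fos, 0.251 to 1.23 in males over females, reaches to both sides of 1. In BN-Lx the difference was largest for Fos (-1.17 ± 0.82) and in SHR for Junb (-0.86 ± 0.61), with 0 of 5 called in each strain against 0.0331% of all genes. Within b35, which held 3 of the 4 males, the values over both strains were -0.93 for Fos, -0.4 for Junb, -0.22 for Egr1, -0.8 for Nr4a1 and -0.72 for Arc. The remaining male was an SHR animal in b37, and within that suffix male minus female in SHR was -0.02 (Egr1) to -0.83 (Junb). The sex difference did not differ detectably between the strains, with 0 of 5 members and 0% of all genes called.

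**Figure D5:**
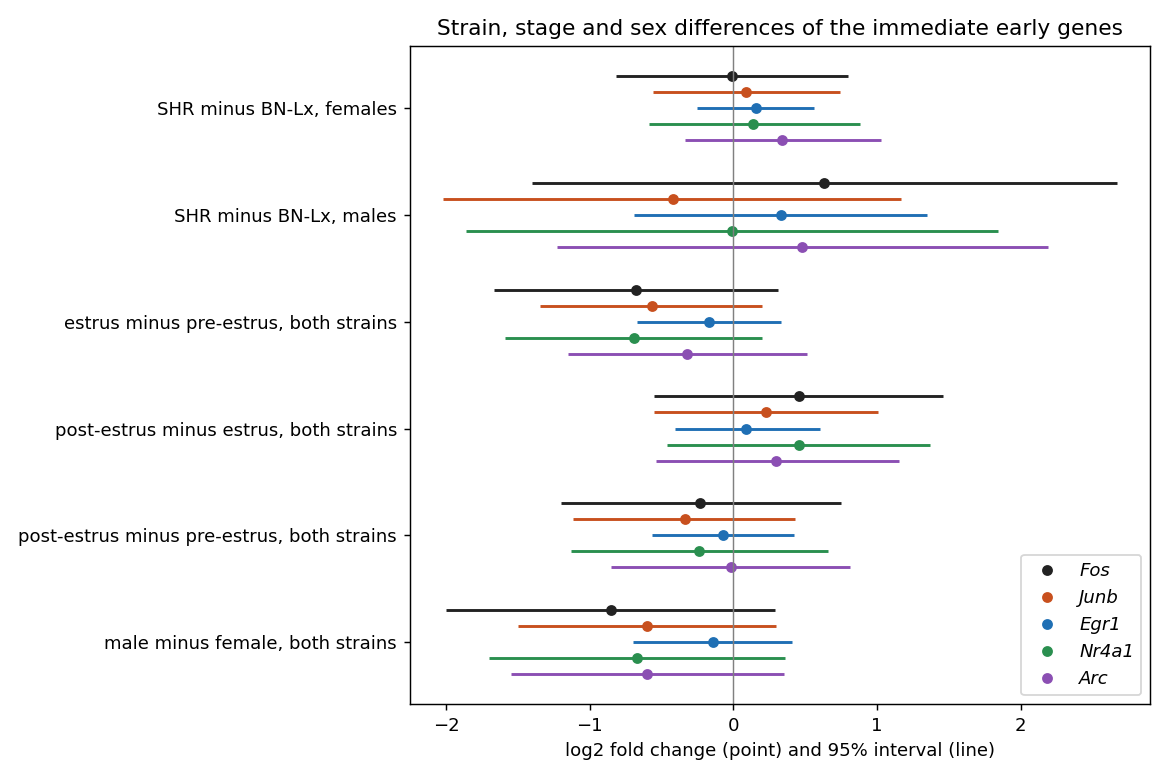
log2 fold change (points, x axis) and its 95% interval (lines) for each gene in 6 comparisons (y axis), from the model with group and suffix terms. Every interval crosses 0, the intervals of Egr1 are the narrowest, and those between males, with 2 animals per strain, are the widest.

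In all, 0 of 110 tests of a member in 22 comparisons were called, with a lowest adjusted p of 0.641. These comparisons share libraries and are not independent. The suffix itself, b37 minus b35, was -0.34 ± 0.39 for Fos, 0.16 ± 0.32 for Junb, -0.48 ± 0.20 for Egr1, -0.37 ± 0.36 for Nr4a1 and -0.42 ± 0.33 for Arc. Egr1 had the lowest unadjusted p (0.0236, adjusted p = 0.517), and 0 of 5 members were called against 0.0551% of all genes.

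The genes were compared with 3 properties of the libraries, the share of counts held by the 8 most abundant genes, the spike-in share and the total count. None of the 15 relations passed an adjusted p of 0.05 in the permutation test within groups (lowest adjusted p for r 0.646), and r ran from -0.38 (Junb with the share of the 8 genes, permutation p = 0.0588) to 0.28 (Fos with the same share). The values differed between the suffixes. For the share of the 8 genes, r was 0.54 (Junb) to 0.85 (Arc) within b35 and -0.5 (Junb) to 0.02 (Fos) within b37, in 13 and 11 libraries. With the shares of the most abundant gene and of the next 7 as covariates in the model, SHR minus BN-Lx in females was 0.58 for Fos, -0.07 for Junb, 0.28 for Egr1, 0.6 for Nr4a1 and 0.9 for Arc, and that of Arc at post-estrus was 1.28. None of the 5 genes was called in any comparison of that fit (lowest adjusted p 0.336). Among all genes the same fit called 2069 for the strain difference in females and 522 in males. By stage it called 714 at pre-estrus, 962 at estrus and 259 at post-estrus. Over both strains it called 0 genes for estrus minus pre-estrus and 9 for male minus female. Estrus minus pre-estrus over both strains was then -0.25 (Egr1) to -0.95 (Nr4a1), and male minus female -0.15 (Egr1) to -0.86 (Fos).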

How the data were processed

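Whole-brain total RNA was depleted of ribosomal RNA, built into stranded libraries and sequenced as paired-end reads with 4 libraries per lane, per the labels' protocols. That protocol text speaks of male rats, whereas the sample labels name females at 3 stages and males, and the sample labels were used for grouping. The authors used cutadapt and RSEM, per the submitters' processing notes, with no version. Which aligner, build and annotation were used is not given in the sources used here. Deposited files hold RSEM's expected counts per gene, estimates that share ambiguous reads among genes, beside TPM, a level per transcript length, per the file headers. All values of the 5 genes were whole numbers, and 0 other rows had identical counts.

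The pairing of the 5 identifiers with symbols came with the choice of the genes. The reference table matched 0 Ensembl identifiers, so other immediate early genes, upstream factors and brain cell type markers, listed by symbol, could not be looked up. The members and lists were chosen with earlier results of these data known. The genes named in the text are the 5 members, whatever their values, and at most 2 identifiers of most like profile.

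Expected counts were rounded, the 92 spike-in rows left out, and genes kept by filterByExpr (count minimum 10), which left 18134. All 28 libraries entered a robust quasi-likelihood fit in edgeR 4.0.16 (R 4.3.3) with TMM factors, 8 groups and the suffix term (19 residual degrees of freedom). Within a comparison, Benjamini-Hochberg adjustment ran over all genes tested, and calls need an adjusted p under 0.05. Standard errors derive from the F statistic. Correlations used log2 CPM (prior count 2) with group means subtracted and 100000 permutations within groups, adjusted over 10 pairs or 15 relations. The calculation was tested on simulated data. Alternatives were other normalizations, filters, DESeq2 1.42.0, limma 3.58.1, single suffixes, replicate blocks and each library left out in turn. A fit on deposited TPM, and correlations in females alone, without BN-Lx estrus replicate 2 and without each library in turn, were added after seeing the data.

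By the median, libraries of different groups that share a number in the labels were not clearly more alike than others. Over 18 pairs with the same replicate number the median correlation of deviations was -0.06 (-0.41 to 0.19), and 1 pair exceeded 0.1. Over 30 pairs sharing the number in the sample description it was 0.01 (-0.38 to 0.46), and 12 pairs exceeded 0.1. The median over pairs with different description numbers was -0.01. How many of those exceeded 0.1 was not counted, so a link between some libraries sharing a number is not excluded. Only pairs from different groups were compared. Sharing within a group, as in SHR pre-estrus where every library carries the same description number, could not be seen and is not excluded.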

Additional observations from a re-analysis of the deposited data

How the results depend on the processing

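In all settings except the b35 libraries alone, and with each of the 28 libraries left out in turn, 0 members were called in any comparison, and leaving out a library gave a lowest adjusted p of 0.276. In the b35 libraries alone 1 member, Junb, was called for the strain difference at pre-estrus (log2 fold 1.43, adjusted p = 0.0344, edgeR). In that comparison 2488 of 18602 genes were called. Junb also passed for strain by stage, where BN-Lx post-estrus was replicate 5 alone. That library had the fewest genes detected (16607) and the highest share in the 8 most abundant genes (50.7%), so nothing is read from this call. The cause of either call was not tested. The b37 libraries alone gave values for 18 of 22 comparisons and called 0 members. The signs are less stable than the calls. Of 1305 values under other settings 130 had another sign than the main value, as did 107 of 2520 with a library left out, and none of them was called. Leaving out 1 library moved 15 of 90 log2 values by over 1.5-fold, 0 of them for Egr1. All 5 members stayed lower at estrus than at pre-estrus over both strains in 13 of 15 other settings. The exceptions were b35 alone and a block on the title's number. The same direction held in all 28 fits with a library left out. Over both strains all 5 stayed lower in males in 13 of 14 settings (not with that block) and in all 28 fits. In BN-Lx alone this held in 10 of 14 settings and in all 28 fits, and without the suffix term Egr1 there was at 0.02. In SHR alone it held in 13 of 15 settings and in 26 of 28 fits. Since the members mostly move together, a shared direction is not 5 separate results. The number of correlated pairs was 10 of 10 in the main setting, 0 of 10 within b35 and 6 of 10 within b37, 8 of 10 without BN-Lx estrus replicate 2, and 10 of 10 with other factors, prior counts or centring and in females alone.

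With the replicate block, the number in the sample description gave values for 17 of 22 comparisons and called 0 members (lowest adjusted p 0.502), and the replicate number of the title gave values for 22 and called 0 (lowest adjusted p 0.19). Under the title's number male minus female over both strains ran from -0.14 (Fos) to 3.18 (Junb). Whether these numbers pair libraries between groups is not settled, so these values are given without a reading.

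On deposited TPM the median of all genes was 0.28 higher in SHR females, 0.51 at post-estrus, and 6281 genes were called between strains in females. The members were at 0.39 for Fos, 0.41 for Junb, 0.45 for Egr1, 0.47 for Nr4a1 and 0.66 for Arc, or 0.11 to 0.38 above that median, with 0 called (lowest adjusted p 0.0791, Egr1).

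Depth does not limit these genes, which had at least 81 counts in every library. The number of animals and the spread between them set the intervals, and a change of 2-fold in Fos, Nr4a1, Junb or Arc lies inside many of them.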

Other observations

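The deposited transcript length of Nr4a1, which RSEM weights by the abundance of a gene's isoforms, ran from 2343.1 to 2484.0 bases over the 28 libraries, with a median of 2476.8. That of Arc ran only from 3011.5 to 3018.9 bases. Fos, Junb and Egr1 had a single length each, 1589, 1783 and 3130 bases. None of these lengths was compared between groups.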
